A study of Mus musculus with 48 samples.

Results

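Genomic elements that carried histone H3 acetylated at lysine 27 (H3K27ac) in heart and in liver, but not in forebrain, were examined in CD-1 mice. The 24 deposited H3K27ac peak lists were joined into 86181 elements by merging peaks that shared 1 bp or more. An element was called marked by a list with 1 or more peaks inside it. An element entered the set if it was marked at 4 or more of 7 heart stages, at 4 or more of 7 liver stages and in none of the 9 forebrain lists. This rule took 1204 elements, 1.40% of all elements and 8.80% of the 13675 elements that met the heart and liver conditions. Members were thus chosen by the presence of peaks in these lists, so that presence by tissue is given as a description, without a p-value. Libraries came from forebrain, heart and liver at 3 prenatal stages (days E11.5, E14.5, E17.5) and 4 stages after birth (days P0, P7, P21, P56), all of strain CD-1 with no genotype or treatment named. The antibody against H3K27ac came from Abcam, and each H3K27ac library was paired with an input library, made from sonicated DNA that was not immunoprecipitated. At every stage other than P56 the tissue of several animals was pooled. Heart E11.5, forebrain E11.5 and forebrain P56 had 2 replicates and the other groups 1 library, and replicate 1 of heart E11.5 was used for the heart condition. Both replicates entered the merging of peaks and, in forebrain, the condition of no peak.

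H3K27ac is laid down by the acetyltransferases CBP and p300 at active enhancers and promoters, and it tells active enhancers from those that are only primed. Enhancers act on genes at a distance and are often active in few tissues, whereas promoters of widely used genes carry the mark in most tissues. The heart is built from mesoderm and the liver epithelium from endoderm, and each organ also holds endothelium, connective tissue and resident macrophages. The liver is the main site of blood formation in the fetus. Heart muscle and hepatocytes both burn fatty acids after birth. In bulk tissue, a mark in more cells and a stronger mark in each cell cannot be told apart. The peak lists are on the mouse build mm9, for which no gene annotation or genome was used here, so the elements are named by position, and the tissue labels were not checked against marker genes.

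The libraries differed in depth and in the length of their lists. Heart libraries held 4644972 to 25929812 uniquely mapped reads, liver libraries 4108135 to 21429854 and forebrain libraries 17135627 to 33394166. The lists held 7376 to 39133 peaks in heart, 12474 to 35535 in liver and 11871 to 36771 in forebrain. The names of the libraries, given in the headers of the lists, fall into 2 series: 8 of the 9 forebrain libraries and heart E11.5 and P56 belong to the first, and the other heart libraries, 1 forebrain P56 library and all liver libraries to the second. A difference between liver and forebrain can therefore not be told apart from library series, other than through that 1 forebrain P56 library. Among the 1204 elements, 842 (69.9%) were marked in both heart stages of the first series, and 1191 in at least 1 of them. The rule was also applied within the first series alone in heart and forebrain. It then asked for both heart stages, 4 or more liver stages and no forebrain list of that series, and took 958 elements. Of these, 842 were in the set. They are by construction the 842 just given, so that this overlap is no check on library series.

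Heart P21 stood apart. Its H3K27ac list was the shortest, and the library labelled heart P21 input gave 23762 peaks, against 17 to 865 in the other input lists. The peaks of that input list lay in 893 (74.2%) of the 1204 elements, against 23.0% of all elements. They lay in 1359 (62.9%, exact Clopper-Pearson 95% interval 60.8 to 64.9) of the 2162 elements marked at 4 or more liver stages and in no heart or forebrain list. Of the 3334 elements marked at 4 or more heart stages and in no liver or forebrain list, 10 (0.300%, interval 0.144 to 0.551) held such a peak. The share was 0.0491% of 4074 forebrain-only elements and 91.1% of 10359 elements marked at 4 or more stages of all 3 tissues. Over elements, the Jaccard index of this input list (shared elements over all elements of both lists) was 0.685 with liver P21, 0.618 with liver P56 and 0.594 with liver P7. With the earlier liver lists it was lower, from 0.359 at E14.5 to 0.553 at P0. It was at most 0.437 with any heart list and at most 0.355 with any forebrain list. With the heart P21 H3K27ac list, the shortest, it was lowest, at 0.0704. The index also depends on the length of the lists. The heart P21 H3K27ac list, which like every H3K27ac list is named in its header as made with input, held 37.1% of the heart-only elements, 16.5% of the heart and liver elements and 1195 of the 10359 elements of all 3 tissues. The part of the input library in this was not tested. In the other 6 heart lists of replicate 1, 59.6% to 97.7% of the heart and liver elements were marked. Tests over stages are given with all stages, and without P21 where that changed a value by over 1.5 times. Where a test leaves out stages or a series, the members stay those chosen with all lists. Intervals cover counting error only.

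**Figure D1:**
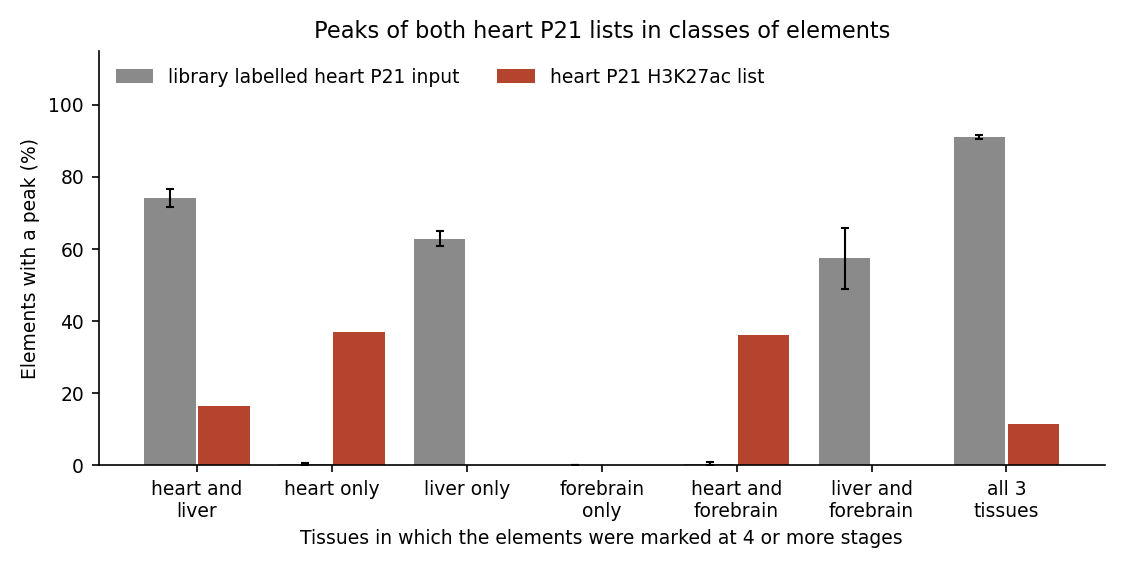
Share of elements (%) with a peak of the library labelled heart P21 input (grey, with exact 95% intervals) and of the heart P21 H3K27ac list (red), for classes of elements marked at 4 or more stages of the named tissues. The input list covers 74.2% of heart and liver elements and 62.9% of liver-only elements, but 0.300% of heart-only elements.

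The elements on both sides of the thresholds are described first. Exactly 4 heart stages were marked in 321 members and exactly 4 liver stages in 397. Just outside, 425 elements had 3 heart stages and 4 or more liver stages with no forebrain list, and 699 had 3 liver stages and 4 or more heart stages. The median over elements of the mean rank percentile in heart (100 is the best peak of a list) was 34.8 for members at 4 heart stages and 31.0 for elements at 3. In liver the values were 33.2 at 4 stages and 28.3 at 3. Of the 13675 elements at 4 or more stages of both tissues, 538 were in 1 forebrain list, between 530 and 727 in each number of lists from 2 to 6, and 6051 (44.2%) in all 9. Among the 538, the single list was forebrain P56 replicate 1 in 223 (41.4%), forebrain P7 in 141 and forebrain P21 in 0. Membership depended on peaks low in the lists. When each heart and liver list was shortened to its best 12474 peaks, with the shorter heart P21 list and all forebrain lists kept whole, 69 elements met the rule; with forebrain lists shortened too, a setting chosen after the data were seen, 323 did.

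The number of members marked is given for each list. At E11.5, 966 members were marked in heart (31.9% of all elements were) and 736 in liver (20.6%). At E14.5 the counts were 1065 in heart (32.2%) and 342 in liver (13.3%). At E17.5 they were 717 in heart (23.2%) and 1039 in liver (25.4%). At P0 they were 1176 in heart (40.3%) and 823 in liver (19.7%). At P7, 1150 members were marked in heart (36.8%) and 1183 in liver (35.9%), and 1131 (93.9%) in both. At P21 the counts were 199 in heart (7.38%) and 1024 in liver (28.6%), and at P56 1067 in heart (39.1%) and 1037 in liver (32.2%). The rule used these lists, whose lengths differ, so that no change between stages is read from them. Of the members, 117 (9.72%) were marked at all 7 heart stages and 152 (12.6%) at all 7 liver stages. All 14 lists held 14 members, and all except heart P21 held 61.

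**Figure D2:**
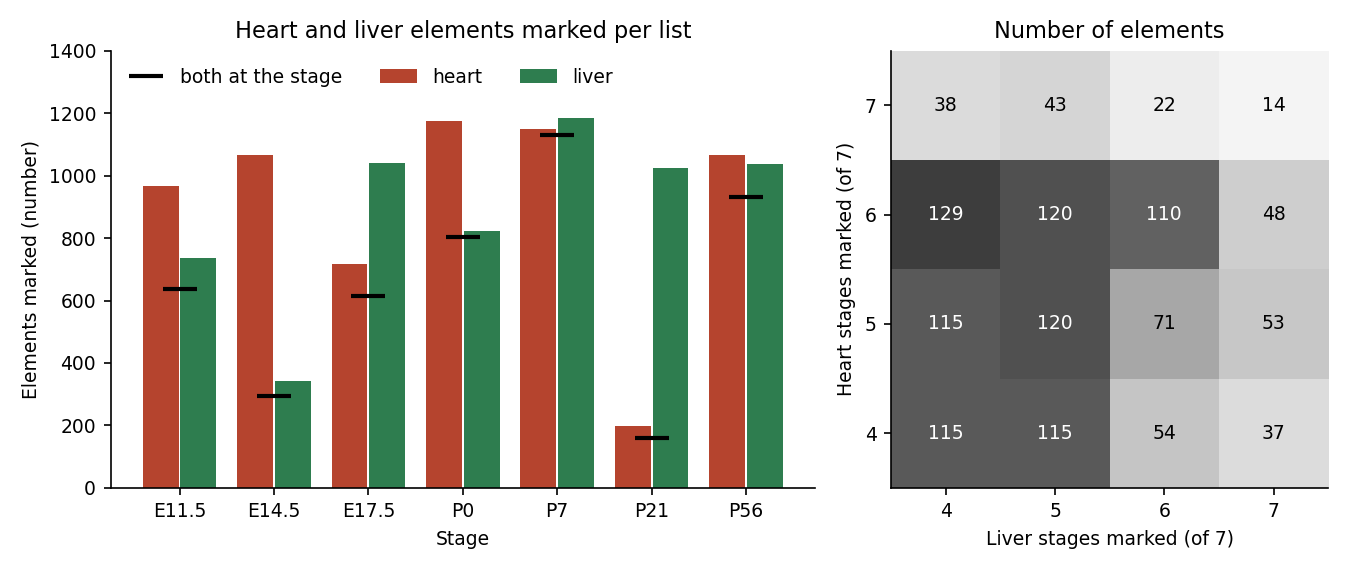
Left, number of the 1204 heart and liver elements marked at each stage in heart (red) and liver (green), with a line at the number marked in both at that stage. Right, number of elements by the number of heart stages and of liver stages marked; at P7 nearly all were marked in both tissues (1131), at heart P21 few (199).

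The lists were then read element by element, since a member can be marked in heart and in liver at different stages. At the same stage, 373 members (31.0%) were marked in both tissues at 4 stages, 372 (30.9%) at 3. Another 231 shared 5 stages, 75 shared 6 and 14 all 7, while 125 shared 2 and 14 shared 1. The rule itself fixes at least 1 shared stage, since 4 stages were needed of 7 in each tissue. At E11.5, 328 members were marked in heart alone, 98 in liver alone and 638 in both. At P0, 371 were marked in heart alone and 18 in liver alone. At E17.5 it was the reverse, with 103 in heart alone and 425 in liver alone. The shorter list of each stage had fewer members alone at every stage other than P7, where liver was shorter. At E17.5 the lists were close in length, with 23210 peaks in heart and 24270 in liver. Apart from P21, however, heart E17.5 was the shortest heart list. Elements of all 3 tissues showed 2.83% in heart alone and 3.96% in liver alone at E17.5, against 8.55% and 35.3% of the heart and liver elements. At E17.5, 95.7% of the elements of all 3 tissues were marked in heart and 96.8% in liver, so that few could be in 1 tissue alone. The part of list length in these counts was not tested.

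Some stage patterns were common. In heart, the most frequent pattern was a mark at every stage other than P21, in 375 members (31.1%), followed by absence at E17.5 and P21 alone in 193. In liver, 210 members (17.4%) were marked at every stage from E17.5 on but not at E11.5 and E14.5, and 207 (17.2%) lacked only E14.5, the shortest liver list. Of the 210, 125 (59.5%) were marked in heart at both E11.5 and E14.5. The share over all members was 72.4%. Another 76 members (6.31%) were marked in liver from E11.5 to P7 without a break and not at P21 and P56. In heart, 58 (76.3%) of these 76 were marked at P56, against 88.6% of all members. No member lacked all prenatal marks in both tissues, although 20 lacked them in heart and 59 in liver. By the rule, an element without prenatal marks had to be marked at all 4 postnatal stages. In heart these include P21, whose list held 16.5% of the members, so that elements shared after birth alone could hardly enter the set. At E11.5 and P56 in both tissues, 443 members (36.8%) were marked.

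A second E11.5 heart library, which the rule did not count, held 791 (65.7%, exact Clopper-Pearson 95% interval 62.9 to 68.4) of the 1204 members. It held 27.1% of all elements, and 77.0% of the elements marked at 4 or more heart stages. Among the 966 members marked in replicate 1, 743 (76.9%, interval 74.1 to 79.5) were marked in replicate 2. The share was 76.2% of the heart-only elements and 77.7% of all elements marked in replicate 1, a share close to that of the members. Of the 238 members without a mark in replicate 1, 48 (20.2%, interval 15.3 to 25.8) were marked in replicate 2, against 13.4% of such heart-only elements and 3.41% of all elements without a mark in replicate 1. Members seen in both replicates had a median rank percentile of 49.98 in replicate 1, and the 223 seen in replicate 1 alone had 24.4. The elements share a library, so that these intervals cover counting error only. Liver had no replicate at any stage, and recurrence there was not measured.

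The place of member peaks in their own lists was not used by the rule and was compared with that of elements of 1 tissue. In heart lists the median rank percentile of member peaks was 40.7 at E11.5, 36.9 at E14.5, 30.8 at E17.5, 51.4 at P0, 48.3 at P7, 60.2 at P21 and 52.6 at P56. Peaks of heart-only elements had 36.4, 40.6, 28.2, 49.2, 43.9, 38.9 and 43.3 at the same stages. Members stood higher at 6 of 7 stages, by 5.75 ± 7.87 percentile points (mean and SD over 7 stages). The difference did not pass an exact two-sided sign-flip permutation test over the stages (p = 0.0625, adjusted over 5 tests p = 0.156). Over the settings run it was smallest without P21, at 3.16 (exact permutation p = 0.125). It was largest with the best peak of each element, at 8.07 (exact permutation p = 0.0312, adjusted p = 0.0521). In liver lists members had 34.6 at E11.5, 33.8 at E14.5, 38.5 at E17.5, 34.2 at P0, 54.1 at P7, 40.7 at P21 and 47.9 at P56. Liver-only elements had 32.0, 32.7, 42.0, 32.1, 56.2, 51.6 and 61.2. Members stood lower at 4 of 7 stages, with differences of -10.9 points at P21 and -13.2 at P56, and the mean difference of -3.42 ± 6.35 (SD, n = 7 stages) did not pass either (exact permutation p = 0.281, adjusted p = 0.352). Over the settings run it ranged from -1.36 against liver elements shared with forebrain to -6.09 when each peak was set to 1 kb around its centre (exact permutation p = 0.0469, adjusted p = 0.130), and it was -2.16 without P21 and -1.78 without P56. Whether the differences in heart and in liver differ from each other was not tested. In each tissue largely the same elements recur from stage to stage, so that the stages are not independent. The SD and p-values therefore do not measure spread over independent samples. By construction, 10% of the peaks of a list have a rank percentile above 90. The share of member peaks above it was smaller in 12 of the 14 lists and larger at heart P21 and liver E14.5. They were 16 of 1144 member peaks at heart E11.5, the lowest share in heart, and 30 of 224 (13.4%) at heart P21, the highest. In liver they were 13 of 822 (1.58%) at E11.5 and 45 of 373 (12.1%) at E14.5.

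**Figure D3:**
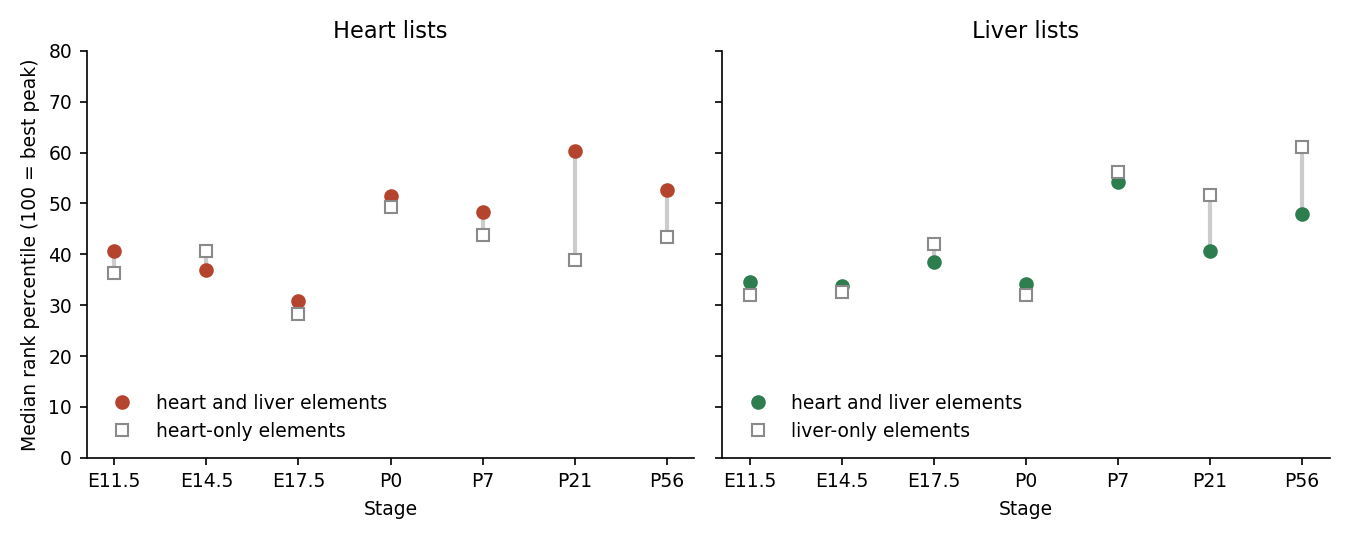
Median rank percentile of peaks within each list (100 is the best peak) for heart and liver elements (filled circles) and for elements of 1 tissue (open squares), by stage, in heart lists (left) and liver lists (right). In liver the heart and liver elements stood lower than liver-only elements at P21 (40.7 against 51.6) and P56 (47.9 against 61.2).

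Peak width gave no difference past the adjusted threshold. Wider peaks are more likely to overlap peaks of another tissue, so that peak width is not free of the rule. The part of this in the differences below was not tested. Member peaks in heart had median widths of 2049 bp at E11.5 to 3633 bp at P56. They exceeded heart-only peaks by 319 ± 345 bp (SD, n = 7 stages) and were wider at 6 of 7 (exact permutation p = 0.0312, adjusted p = 0.156). Over the settings run this difference was smallest without P21, at 216 bp (exact permutation p = 0.0625, adjusted p = 0.312). It was largest with the best peak of each element, at 395 bp (exact permutation p = 0.0156, adjusted p = 0.0521). Matched on number of stages it was 344 bp (exact permutation p = 0.0156, adjusted p = 0.0781). In liver the difference was 43.4 ± 165 bp (exact permutation p = 0.547, adjusted p = 0.547), and over the settings run it ranged from -36.0 bp when matched on number of stages to 126.5 bp with the best peak of each element (exact permutation p = 0.0312, adjusted p = 0.0521). It was 118 bp against liver elements shared with forebrain. Members made up 3.13% to 3.84% of the elements of a heart list and 2.98% to 4.85% of those of a liver list. This share rests on the presence that chose the members and is a description. The sign-flip test over 7 stages cannot give a p below 0.0156. A lone test at that value did not pass after adjustment, as with heart width matched on number of stages. No absence of a difference is therefore read from these tests.

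The order of the members in heart lists had little relation to their order in liver lists. Over members marked in both at a stage, Spearman's rho of the rank percentiles was 0.26 at E11.5 (638 elements), -0.015 at E14.5 (294), 0.027 at E17.5 (614), -0.023 at P0 (805), 0.10 at P7 (1131), 0.14 at P21 (160) and 0.082 at P56 (933). For elements of all 3 tissues rho was 0.41 to 0.67 at the 6 stages other than P21, and 0.15 at P21. Within a tissue the order of the members was kept between adjacent stages, with rho from 0.56 to 0.79 in heart and 0.56 to 0.86 in liver, and rho was 0.77 between the heart E11.5 replicates (743 elements). These correlations run over elements that share their libraries, and are descriptions. The heart E11.5 and P56 libraries belong to another series than those of liver, and the stages in between to the same series.

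The places of heart and liver peaks within a member were compared next. Merging over 24 lists does not require heart and liver peaks to overlap each other. At the same stage they overlapped by at least 1 bp in 93.7% of members marked in both at E11.5, 87.4% at E14.5, 90.1% at E17.5, 92.8% at P0, 95.5% at P7 and 98.0% at P56, and in 120 of 160 at P21. In elements of all 3 tissues the share was 98.7% to 99.7% at the stages other than P21, and 76.7% at P21. Between adjacent stages of 1 tissue, 97.4% to 99.5% overlapped. The median distance between the centres of the best heart and the best liver peak was 398 bp at E11.5, 742.5 bp at E14.5, 719.5 bp at E17.5, 690.5 bp at P0, 553 bp at P7, 1874 bp at P21 and 636 bp at P56. In elements of all 3 tissues it was 181, 233, 345.5, 292.5, 276.5, 3709 and 319 bp in the same order. Between adjacent stages it was 177 to 268 bp in heart without P21, 178 to 429 bp in liver, and it was 166 bp between the heart E11.5 replicates. Members had the larger distance at 6 of 7 stages, P21 being the exception. In a test chosen after the data were seen, the mean difference from elements of all 3 tissues was 36.7 ± 831 bp over 7 stages (SD; exact sign-flip permutation p = 0.984) and 349 ± 103 bp without P21 (SD, n = 6; exact permutation p = 0.0312, the smallest that 6 stages can give). Within the second series it was -55.4 bp over 5 stages (exact permutation p = 1). Without P21 it was 389.5 bp there, larger in members at 4 of 4 stages (exact permutation p = 0.125, the smallest that 4 stages can give). With elements matched in width it was 366 bp over 7 stages (exact permutation p = 0.0625) and 491 bp without P21 (exact permutation p = 0.0312).

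**Figure D4:**
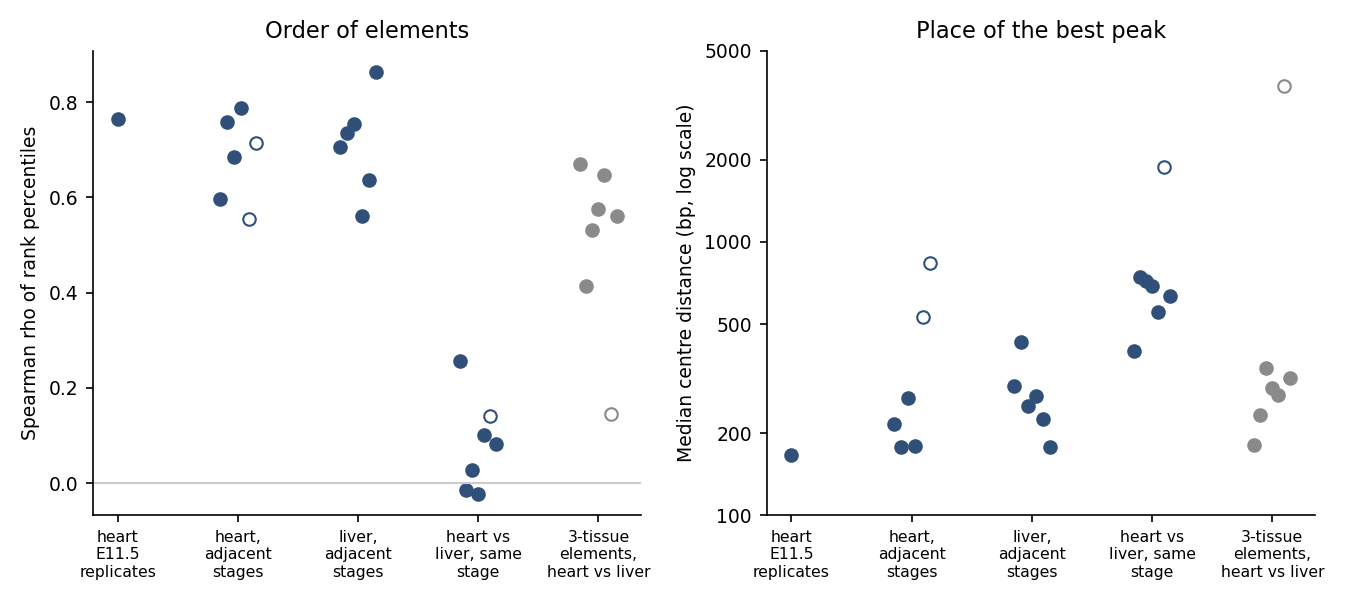
Left, Spearman's rho of rank percentiles over elements, and right, median distance between the centres of the best peaks (bp, log scale), for pairs of lists. Blue points are pairs of lists over the heart and liver elements, grey points are over elements of all 3 tissues, and open points involve heart P21. Over the heart and liver elements, heart against liver gives rho of 0.26 or less, while adjacent stages of 1 tissue give 0.56 or more.

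A stricter reading asked for bases that lay under peaks of 4 or more heart lists and 4 or more liver lists at once. Such a core was present in 1043 (86.6%) of the 1204 members, with a median length of 1773 bp, which was a median of 30.3% of the element's width. In 86 of the 161 members without a core, 4 heart lists and 4 liver lists each met at a base of their own, but not at the same base. Members without a core were wider, with a median of 10161 bp against 6258 bp.

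The members were wide and lay on every chromosome other than Y. Their median width was 6760 bp, from 1725 to 52719 bp, against 2956 bp for all elements, 3569 bp for heart-only and 4442 bp for liver-only elements, and 6555 bp for elements of all 3 tissues. An element grows with the number of lists in which it has a peak, so that width is partly set by the rule. The nearest forebrain peak was a median of 11.4 kb away, against 13.7 kb for heart-only and 14.6 kb for liver-only elements. It was within 1 kb of 40 members (3.32%), close to the 3.42% of heart-only and 3.38% of liver-only elements. Chromosome 2 held the most members, 101 (1.46% of its elements). Chromosome 19 had the highest share among the numbered chromosomes and X, 2.06% (47 members), and chromosome 9 the lowest, 0.901% (45). Neighbouring members were a median of 742 kb apart, and 178 of 1183 neighbouring pairs were within 50 kb. Windows of 100 kb with 4 members started at 61900001 on chromosome 15 and at 107400001 and 107500001 on chromosome 5, and held 11, 7 and 9 elements of any kind. Of the 14 windows with 3 members, those taken to complete the 5, by text order of the chromosome names, started at 152800001 on chromosome 1 and 18800001 on chromosome 11. Named after the values were seen, the next window on chromosome 5, from 107600001, also held 3.

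The 15 members with the highest mean rank percentile over the 14 heart and liver lists, where a list without a peak counted 0, were taken as examples. Over all members this mean had a median of 33.4 and a highest value of 81.2. The first lay on chromosome 8 from 87895354 to 87911920. In heart its rank percentiles were 86.4 at the lowest, 90.7 at the median and 97.5 at the highest of 6 marked stages, with P21 not marked. In liver they were 57.2, 93.0 and 99.2 over 7 stages, with the lowest values at P21 (57.2) and P56 (58.1) and values of 86.3 or more at the other 5. Its core of 8407 bp ran from 87899811 to 87908217. It was among the better peaks of each heart list that held it, and of the liver lists until P7.

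The second lay on chromosome 3 from 116264092 to 116268716 and was marked in all 14 lists. It was one of the narrower examples, with 4625 bp and a core of 2966 bp from 116264632 to 116267597. Heart percentiles were 86.8, 98.5 and 99.5 (lowest, median and highest) and liver percentiles 42.7, 68.0 and 82.3. The third, on chromosome 18 from 11045857 to 11082118, was also in all 14 lists. It had 29.7, 98.7 and 99.8 in heart, with the lowest value at P21, and 19.3, 65.0 and 95.9 in liver, with the lowest at E14.5 and the highest at P56. Both stood higher in heart than in liver at nearly every stage, the exception being the third at P21.

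The fourth, on chromosome 3 from 19540859 to 19552990, had heart percentiles of 77.7, 98.0 and 99.5 over 7 stages. In liver it had 53.3, 87.9 and 95.4 from E11.5 to P7 and was not marked at P21 and P56. The same absence at P21 and P56 in liver was seen in the tenth, on chromosome 19 from 24579624 to 24617879, with 80.1, 93.6 and 95.2 at the 5 earlier liver stages and 48.8, 84.3 and 89.6 over 7 heart stages. The ninth, on chromosome 2 from 31975210 to 31990356, had liver percentiles of 27.02, 98.0 and 99.3 without a mark at P21, the lowest at P56, and heart percentiles of 45.6, 79.1 and 84.8. In these 3 elements every liver list from E11.5 to P7 held the mark and the P21 list did not.

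The seventh, on chromosome 14 from 63845651 to 63894809, had the most bases in its core of all members, 18022 bp in more than 1 stretch, within a width of 49159 bp. Its heart percentiles were 94.6, 99.7 and 99.9 over 6 stages and its liver percentiles 44.1, 72.8 and 90.4 over 6, with E14.5 not marked. The eighth, on chromosome 8 from 34887865 to 34931842, had 65.6, 91.1 and 99.3 in heart and 44.2, 82.9 and 99.5 in liver, again without liver E14.5. Its liver values were highest at P7, P21 and P56. In both, neither heart P21 nor liver E14.5, the shortest list of each tissue, held a peak.

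Of the remaining examples, 2 were neighbours on chromosome 19. The fifth, from 47446591 to 47467310, had 73.4, 81.3 and 97.6 in heart, with 16.8, 70.1 and 93.1 in the liver lists. The eleventh, from 47471959 to 47490187, had 40.8, 71.0 and 84.7 in heart over 5 stages, without P21 and P56, and 83.7, 95.5 and 98.6 in liver over 7. The sixth, on chromosome 7 from 118042368 to 118075057, had heart percentiles of 72.4, 80.8 and 92.4 and liver percentiles of 39.7, 93.6 and 98.3. The twelfth (5202758 to 5207309) and the fourteenth (90562928 to 90580566) lay on chromosome 6. The thirteenth was at 120376160 to 120395713 on chromosome 11 and the fifteenth at 90735127 to 90741242 on chromosome 16. Each of these 4 was marked at 7 liver stages, and the thirteenth also at 7 heart stages. Their median percentiles were 74.5 to 84.8 in heart and 62.9 to 79.2 in liver. All 15 had a core and were marked in the second heart E11.5 library.

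**Figure D5:**
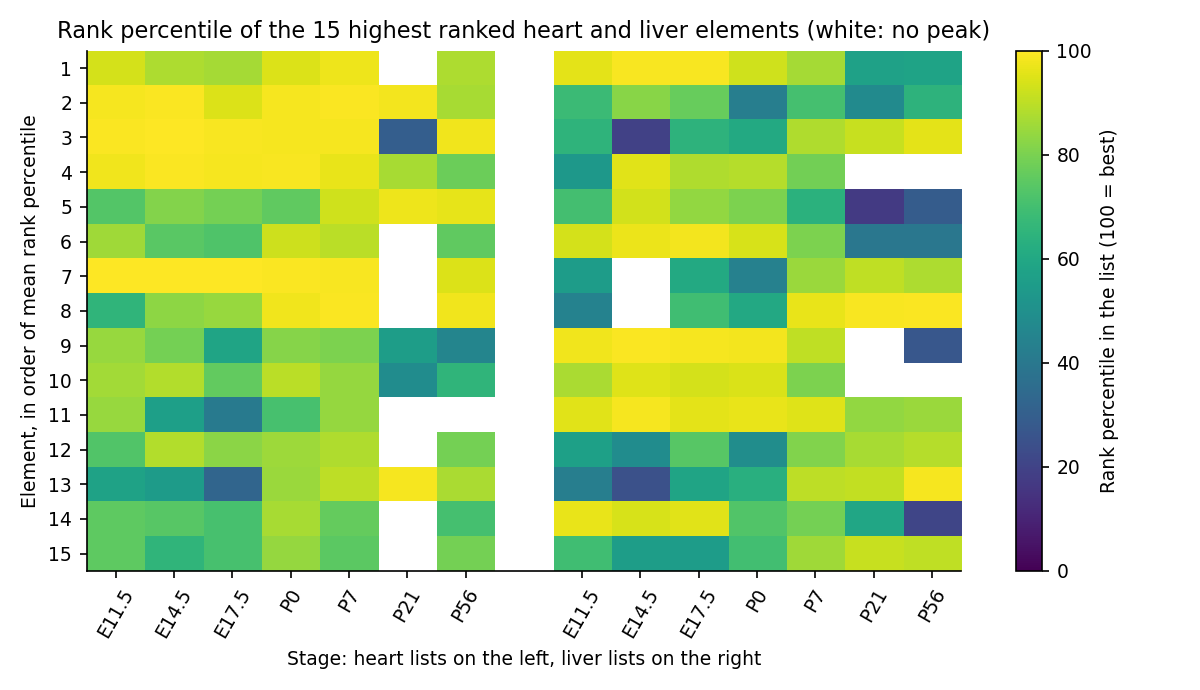
Rank percentile within each list (colour, 100 is the best peak) of the 15 heart and liver elements with the highest mean, one per line in that order, by stage in heart (left) and liver (right); white cells have no peak. The fourth and the tenth lack liver P21 and P56, and 8 of the 15 lack heart P21.

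The members that stood farthest apart between tissues were named by the difference of their mean percentiles over marked stages, which ranged from -71.7 to 68.8 (heart minus liver) with a median of 2.44. Of the members, 662 were higher in heart and 542 in liver. The means run over different lists in each tissue, whose lengths differ, so that these counts do not compare the strength of the mark. No other elements were counted in this way. The largest difference in favour of heart was on chromosome 18 from 11365691 to 11376301, with percentiles of 85.6, 93.5 and 98.4 over 7 heart stages and 4.33, 21.1 and 55.4 over 6 liver stages. It was followed by the elements at 150292113 to 150313972 on chromosome 7 and 21495404 to 21501701 on chromosome 16. The last of this group were those at 24563894 to 24588201 on chromosome 9 and 113213530 to 113218751 on chromosome 13. In these 5 the median heart percentile was 80.1 to 98.3 and the median liver percentile 14.3 to 33.4. All 5 had a peak in the second heart E11.5 library and lacked liver P0.

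In favour of liver, the first lay on chromosome 10 from 92600024 to 92610631. It was marked in liver from E11.5 to P7, with percentiles of 82.1, 92.9 and 95.1, and in heart at E11.5, P0, P7 and P56, with 10.4, 20.96 and 23.6. On chromosome 19 followed the elements from 4050393 to 4061679 and from 7090597 to 7095996. They were followed by those at 97483116 to 97495041 on chromosome 8 and at 123090945 to 123099339 on chromosome 7. Median liver percentiles of the 5 were 74.5 to 92.9 and median heart percentiles 6.41 to 20.96. Of these 5, 1 was marked in the second heart E11.5 library, the element starting at 7090597, and the element on chromosome 8 had no core.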

How the data were processed

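The assay was ChIP-seq for H3K27ac, with input controls, on 3 mouse tissues. The submitters' processing notes name BWA, MACS 1.4 and mm9; no source used here gives their roles or settings. One peak list per library was deposited, with positions and a rank for each peak but no score. Track names in the file headers mark every H3K27ac list as made with input. Read counts per library come from the authors' deposited summary table, which writes P0 as P1 and P21 as P20, as the list headers do. Replicates of a group are not stated to come from separate animals, so p-values speak for these libraries alone. The stages also share their elements and are not independent.

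Peaks were merged as described. Rank percentile is 100 for the best peak of a list and was set within each list; an element with several peaks in a list takes its best peak for orders, centre distances and named elements, while the tests of rank and width take all peaks. Members, comparisons and lists were chosen with earlier results of these data known. Tests were exact two-sided sign-flip permutation tests over stages, with Benjamini-Hochberg adjustment over 5 tests at a threshold of 0.05. One of the 5, on the share of each list taken by members, compares values that chose the members, so its p is not reported. The scripts were tested on simulated data. The named elements were chosen by a fixed rule: the 15 with the highest mean rank percentile, the 5 with the largest difference in each direction, and 5 windows (100 kb each) chosen by their number of members. Planned gene lists, motifs and sequences were not run, since no mm9 annotation or genome was used here. Coordinates are 1-based. Computations used scipy 1.17.1, pandas 2.3.3 and numpy 2.4.6 under Python 3.11.15; plots used matplotlib 3.10.9.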

Additional observations from a re-analysis of the deposited data

Results flagged for a closer look

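A signal appeared in data outside the H3K27ac lists. Peaks of the library labelled heart P21 input lay in 893 of the 1204 heart and liver elements (74.2%, against 23.0% of all elements). Those of the liver P0 input list, which held 865 peaks, lay in 7 (0.581%), a smaller share than the 0.857% of all elements. The other 22 input lists had a peak in 0 of the 1204. Of the 893, 106 were also in the heart P21 H3K27ac list, and 787 were in the input list but not in that list. Counting either heart P21 list, 986 members had a peak. Among the 1030 members marked in heart at both P7 and P56, 795 held a peak of that input list, a share close to the 74.2% of all members. How this library came to resemble the liver lists of P7, P21 and P56 was not tested.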

How the results depend on the processing

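The number of members stayed within 1.5 times of 1204 in 14 settings and left that range in 5. It was 2660 with at least 3 stages in each tissue, 601 with at least 5, 14 with all 7, 69 with heart and liver lists of equal length and 323 with all lists of equal length. Without P21 in both tissues it was 863, and with heart P21 alone left out 1179, with at least 4 stages still asked for in each tissue. Leaving out 1 replicate of heart E11.5, forebrain E11.5 or forebrain P56 gave 1156 to 1427. Recurrence in heart E11.5 replicate 2 was 65.7% for members, 51.1% for heart-only elements, 76.9% for members marked in replicate 1 and 20.2% for the others. None of the 4 tests of rank and width passed the adjusted threshold under the settings run. These include each stage left out in turn, which was chosen after the data were seen. Before adjustment, 5 stages cannot give a p below 0.0625 and 6 stages not below 0.0312. Heart width matched on number of stages had the smallest p of 7 stages (exact permutation p = 0.0156), yet an adjusted p of 0.0781. Without E14.5, heart rank and width were both at the smallest p of 6 stages (exact permutation p = 0.0312, adjusted p = 0.0521). The tests had little room to pass, so that no absence of a difference is read from them. Leaving out heart E11.5 replicate 1 gave mean differences of 5.56 and -3.41 percentile points and of 301 and 42.4 bp. Peak width in liver turned direction when matched on number of stages (-36.0 bp) and without P7 (-2.50 bp). The centre distance between heart and liver peaks was 36.7 bp larger in members over all stages, 349 bp without P21 and 491 bp when matched on width without P21, but -55.4 bp within the second series, which holds P21 among 5 stages. Tests were paired by stage. By replicate number, no paired analysis was possible because heart had 2 replicates at 1 stage alone and liver had none, so that the groups compared share fewer than 2 numbers. Lists without scores limit what depth can show: an unmarked element may lie just under a list's threshold.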
